A study of Homo sapiens with 8 samples.

Results

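The ABC (ATP-binding cassette) transporters of the D283 MED medulloblastoma line were followed through induction of OMOMYC, a dominant negative MYC mini-protein that dimerises with MYC and MAX and occupies their DNA sites. The 45 genes were the protein-coding genes whose symbol is ABC, a subfamily letter from A to G and a number, out of 60668 genes in the count tables, 19934 of them protein-coding. TAP1 and TAP2, which are ABC genes by structure, are outside this naming and were left out. D283 MED is an established cell line of group 3/4 medulloblastoma. The cells carried a lentiviral, doxycycline-inducible Flag-tagged OMOMYC construct and had been selected with hygromycin in both groups. The OMO group was untreated and the OMO+DOX group received doxycycline at 0.25 µg/mL for 72 h, with 4 libraries of polyadenylated RNA each, from independent biological replicates. Induction of OMOMYC and exposure to doxycycline cannot be told apart in these 8 libraries.

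ABC proteins couple the hydrolysis of ATP to the movement of lipids, sterols, peptides, metal complexes, drugs and their conjugates across membranes. Subfamily A handles mostly lipids, B is a mixture of plasma membrane, mitochondrial and lysosomal transporters, C holds the multidrug resistance proteins and the sulfonylurea receptors, D serves peroxisomes and lysosomes, and G consists of short transporters that pair to move sterols or drugs. The E and F proteins have the ATPase domains but no membrane domain and act on ribosomes and translation. In brain tumours the family is known chiefly for drug efflux by ABCB1, ABCC1 and ABCG2, and in normal brain for lipid traffic through the A and G members.

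Library totals were 46592947 to 54020506 counts in OMO and 38390696 to 49249167 in OMO+DOX. A count of 3, taken as the floor of detection, corresponded to 0.0579 to 0.0746 CPM, where CPM is the count scaled to a common library total with TMM factors, and intervals based on counts cover counting error only. OMO replicate 3 stood somewhat apart, with a mean correlation of 0.993 with its own group against 0.9958 to 0.9965 for the other OMO libraries. Of 9 group 3 medulloblastoma markers, all were tested, and their summed level was 3490 to 3561 CPM in OMO and 1791 to 1931 CPM in OMO+DOX, with 2 higher and 7 lower. The photoreceptor genes CRX and NRL were among those 7. MYC, which is among the 9 markers and in their sum, was at 937 ± 75.6 CPM (SD, n = 4) in OMO and 1120 ± 56.6 CPM in OMO+DOX. That value does not separate the endogenous gene from the transgene, whose sequence derives from MYC. The summed levels therefore include any transgene reads counted as MYC. Summed levels of 6 endothelial markers were 3.57 to 4.48 and 5.54 to 6.36 CPM, with PECAM1 under 0.1 CPM in both group means. Of the 3 tested, 2 were higher and 1 lower. Summed levels of 6 leukocyte markers were 0.537 to 0.734 and 2.67 to 3.23 CPM, with PTPRC under 0.1 CPM. The 1 leukocyte marker tested was higher (log2 fold change 3.77). Summed levels of 6 fibroblast markers were 35.06 to 37.49 and 55.55 to 68.88 CPM. Of the 2 tested, 1 was higher and 1 not called. Markers named for other cells and subgroups moved as well. Summed levels of 5 oligodendrocyte markers were 1076 to 1189 and 210.7 to 217 CPM, but only 2 were tested, with 1 lower and 1 not called. Summed levels of 5 astrocyte markers were 180.4 to 197.6 and 80.2 to 88.8 CPM, with GFAP under 0.5 CPM and both of the 2 tested lower. Those of 6 group 4 medulloblastoma markers were 7.47 to 9.41 and 103.2 to 111.7 CPM, with all 3 tested higher. Those of 6 SHH medulloblastoma markers were 29.7 to 31.9 and 122 to 129.2 CPM, with 2 of the 3 tested higher and 1 lower. Those of 6 WNT medulloblastoma markers were 17.91 to 19.63 and 29.18 to 30.79 CPM, with the 1 tested higher. CDH5, a defining endothelial gene, had a mean of 0 CPM in OMO and 1.85 CPM in OMO+DOX. The part of other cell types in the results was not tested, and in bulk RNA fewer cells of a type and less RNA per cell cannot be told apart.

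With more than 1 CPM in at least 4 libraries required for testing, 30 of the 45 members were tested and 15 were not. Comparing OMO+DOX with OMO by edgeR's quasi-likelihood test, 13 members were higher and 11 lower at an adjusted p under 0.05, and 6 were not called. Of all 15222 genes tested, 76.6% were called in either direction, 38.5% higher and 38.1% lower, so the share of members called, 80% of those tested, lay near the background. The groups did not overlap in 23 of the 30 members (76.7%), against 71.7% of all genes tested. A call with an absolute log2 fold change of at least 1 was made for 6 members, ABCA8, ABCA10, ABCA12, ABCC8, ABCG1 and ABCG2, and for 20.9% of all genes. The criteria for differential expression (FDR under 0.001 and absolute log2 fold change over 2) were met by ABCA12 and ABCG1, 6.67% of the members tested, against 7.12% of all genes. The median log2 fold change was 0.04 for the members and 0.01 for all genes, and the medians of its absolute size were 0.48 and 0.43. ABCA10, ABCA12 and ABCG1 passed the filter through the OMO+DOX libraries alone and ABCG2 through the OMO libraries alone, so those 4 had to differ in order to be tested. A filter that asks for over 1 CPM in a majority of the 8 libraries (more than 4) removed all 4 and left 10 members higher, 10 lower and 0 differentially expressed. Without OMO replicate 3 and with the same genes tested, 13 members were higher and 12 lower.

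**Figure D1:**
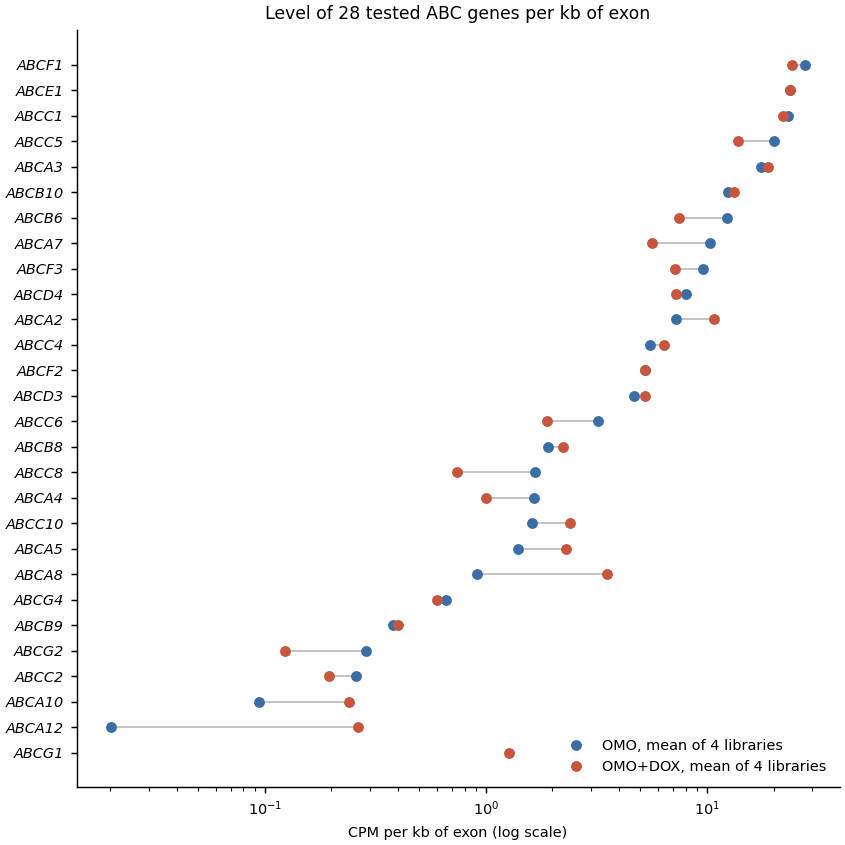
Mean level of 28 tested ABC genes in CPM per kb of exon (x axis, log scale) in 4 OMO and 4 OMO+DOX libraries (points, joined by a line). ABCF1, ABCE1 and ABCC1 were highest in both groups, and ABCG1 has no OMO point because its count was 0 in all OMO libraries.

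The most abundant members per kb of exon in untreated cells were the ribosome-associated ABCF1 and ABCE1 and the glutathione conjugate exporter ABCC1, at 27.7, 23.8 and 23.3 CPM per kb, and the same 3 genes led with doxycycline at 24.2, 23.8 and 22.0 CPM per kb. ABCC5, an exporter of cyclic nucleotides, and ABCA3, which loads phospholipids into lamellar bodies, followed in OMO at 20.02 and 17.5 CPM per kb. On the CPM scale ABCF1 was at 123, 124, 132 and 123 in OMO and 109, 106, 111 and 112 in OMO+DOX. The ABCF1 groups did not overlap, and the gene fell by 0.20 on the log2 scale (SE 0.04, adjusted p = 0.00167). ABCC1 was at 172, 180, 172 and 183 CPM in OMO and 171, 162, 165 and 167 CPM in OMO+DOX. Its lowest OMO values lay just above its highest OMO+DOX value, and the difference was not called (log2 fold change -0.09, approximate 95% interval -0.17 to -0.0023, adjusted p = 0.0863). The interval rests on the normal quantile and is narrower than the quasi-likelihood test allows, so its exclusion of 0 is not a call. Without OMO replicate 3 ABCC1 was called (adjusted p = 0.015). Without OMO replicate 1 it was called only when the filter was applied again to the remaining libraries (adjusted p = 0.037), not with the same genes tested. ABCE1 was at 154, 150, 141 and 153 CPM in OMO and 147, 161, 149 and 139 CPM in OMO+DOX, with overlapping groups and a log2 fold change of -0.0028 (95% interval -0.11 to 0.10).

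**Figure D2:**
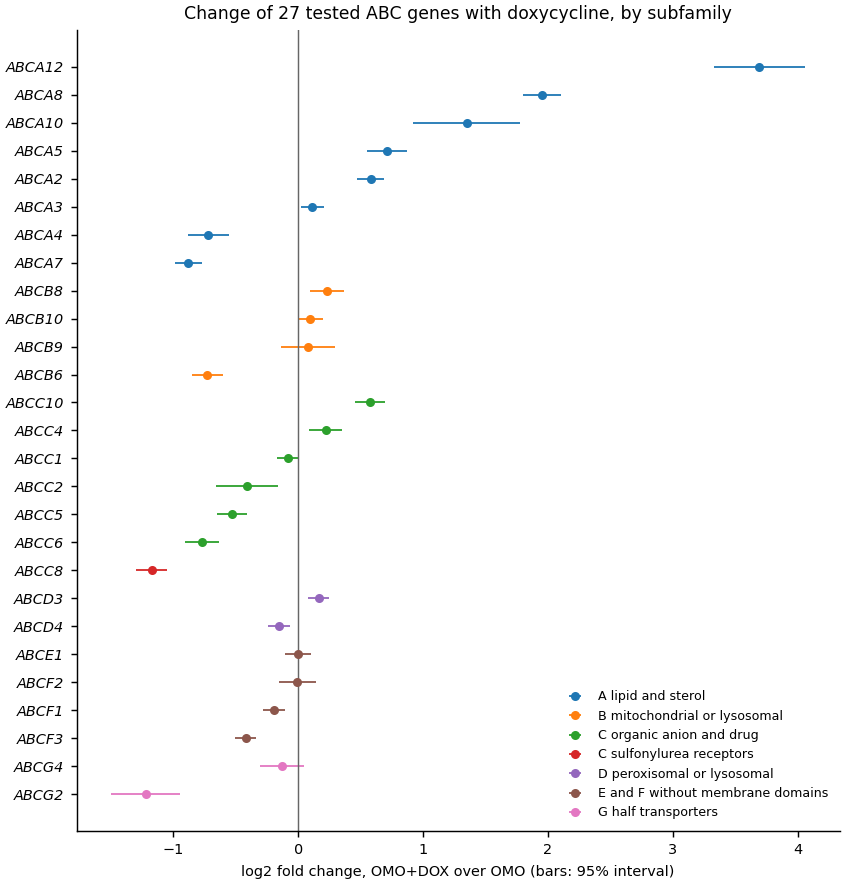
Log2 fold change of OMO+DOX over OMO (x axis) with its approximate 95% interval (normal quantile) for 27 tested ABC genes, coloured by subfamily and role. ABCA12 had the largest change drawn (3.69) and ABCG2 the lowest (-1.22), and ABCG1 is not drawn because its OMO counts were all 0.

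Among the 12 lipid transporters of subfamily A, 8 were tested, of which 6 were higher and 2 lower with doxycycline, and in all 8 the groups did not overlap. Over all genes tested, 76.6% were called and 71.7% did not overlap. ABCA10 and ABCA12 passed the filter through the OMO+DOX libraries alone, so their higher level and lack of overlap were set by the filter. ABCA12, which moves glucosylceramide in keratinocytes, was at 0.204, 0.232, 0.101 and 0.224 CPM in OMO and 2.62, 2.29, 2.65 and 2.37 CPM in OMO+DOX. Every OMO+DOX value lay far above every OMO value, from 5 to 12 counts per library in OMO to between 92 and 136. The fold change was 12.9 (log2 fold change 3.69, SE 0.19, adjusted p = 5.45e-09). ABCA2, an endolysosomal transporter studied in myelin lipid, rose from 83.1 ± 3.15 to 124 ± 8.22 CPM (log2 fold change 0.58, SE 0.06, adjusted p = 1.7e-06). ABCA3 rose by 0.11 on the log2 scale (SE 0.05, adjusted p = 0.0467). That call was lost without OMO replicate 1, 2 or 4 or OMO+DOX replicate 1, 3 or 4, with adjusted p from 0.0586 to 0.26. It was also lost in the fit without the filter (adjusted p = 0.259).

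The 2 subfamily A members that fell were ABCA7 and ABCA4. ABCA7, a phospholipid transporter and a risk gene for Alzheimer disease, was at 86.6 ± 1.65 CPM in OMO and 47.0 ± 3.44 CPM in OMO+DOX, 1.84-fold lower (log2 fold change -0.88, SE 0.06, adjusted p = 3.82e-08). ABCA4, the retinoid flippase of photoreceptor outer segments, was at 14.0 ± 1.36 and 8.49 ± 0.705 CPM, 1.65-fold lower (adjusted p = 1.04e-05).

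A run of 5 subfamily A genes lies in one block on chromosome 17, all on the minus strand, from 68867292 to 69327244 in GRCh38 (460 kb, GENCODE release 29 coordinates), in the order ABCA8, ABCA9, ABCA6, ABCA10 and ABCA5. These genes arose by duplication, and their transport substrates are less well known than those of ABCA1. ABCA8 was at 10.9, 11.0, 8.58 and 10.6 CPM in OMO and 40.8, 38.8, 41.8 and 37.4 CPM in OMO+DOX. All OMO+DOX libraries were above all OMO libraries, by 3.86-fold (log2 fold change 1.95, SE 0.08, adjusted p = 7.68e-10).

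ABCA10 was at 0.692, 0.792, 0.751 and 0.939 CPM in OMO and 2.38, 2.51, 1.99 and 1.21 CPM in OMO+DOX. The OMO+DOX libraries spread over a wider range, with replicate 4 nearest to the OMO values, and the groups did not overlap (log2 fold change 1.35, SE 0.22, adjusted p = 0.000147). ABCA5 was at 20.2, 18.7, 16.4 and 18.3 CPM in OMO and 31.0, 33.7, 29.6 and 26.5 CPM in OMO+DOX, 1.64-fold higher without overlap (adjusted p = 7.1e-06). ABCA5 and ABCA10 share 318 exonic bases on the same strand, 3.78% of the exonic bases of ABCA10, and the part of shared reads in the smaller gene's level was not tested.

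ABCA9 and ABCA6 did not reach the filter. ABCA9 was at 0.244, 0.116, 0.264 and 0.201 CPM in OMO and 1.20, 1.42, 0.760 and 0.834 CPM in OMO+DOX. ABCA6 was at 0.204, 0.348, 0.162 and 0.268 CPM in OMO and 0.747, 0.820, 0.819 and 0.681 CPM in OMO+DOX. In both genes every OMO+DOX library was above every OMO library. In the fit without the filter, where 41.3% of 36881 genes were called, the log2 fold changes were 2.31 for ABCA9 (SE 0.28, adjusted p = 4.23e-08) and 1.604 for ABCA6 (SE 0.27, adjusted p = 8e-06).

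Within 600 kb of the block, WIPI1, an autophagy protein gene, was also higher, at 2.67 ± 0.210 CPM in OMO and 13.7 ± 0.875 CPM in OMO+DOX (5.11-fold, adjusted p = 2.62e-10), and PRKAR1A, a regulatory subunit of protein kinase A, rose 1.46-fold (adjusted p = 8.23e-06). SLC16A6 fell (log2 fold change -0.53, adjusted p = 0.000404). ARSG was not called (log2 fold change -0.08, 95% interval -0.18 to 0.02), and MAP2K6 rose by a log2 fold change of 0.23 (adjusted p = 0.0139). The size and direction of change thus varied among the flanking genes. The window was chosen after the values of the block were seen.

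ABCA13, the longest member by exonic length at 19074 bases, had 2, 1, 0 and 0 counts in OMO and 10, 9, 6 and 9 counts in OMO+DOX. The OMO counts were under the floor of 3, and the ratio of the summed counts scaled by library was 11.8, with a counting interval of 3.70 to 59.8. ABCA1, which exports cholesterol and phospholipid to apolipoprotein A-I, was at 0.163, 0.348, 0.0609 and 0.291 CPM in OMO and 0.315, 0.447, 0.253 and 0.220 CPM in OMO+DOX. Its groups overlapped and no difference was called without the filter (log2 fold change 0.47, SE 0.39, adjusted p = 0.37).

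**Figure D3:**
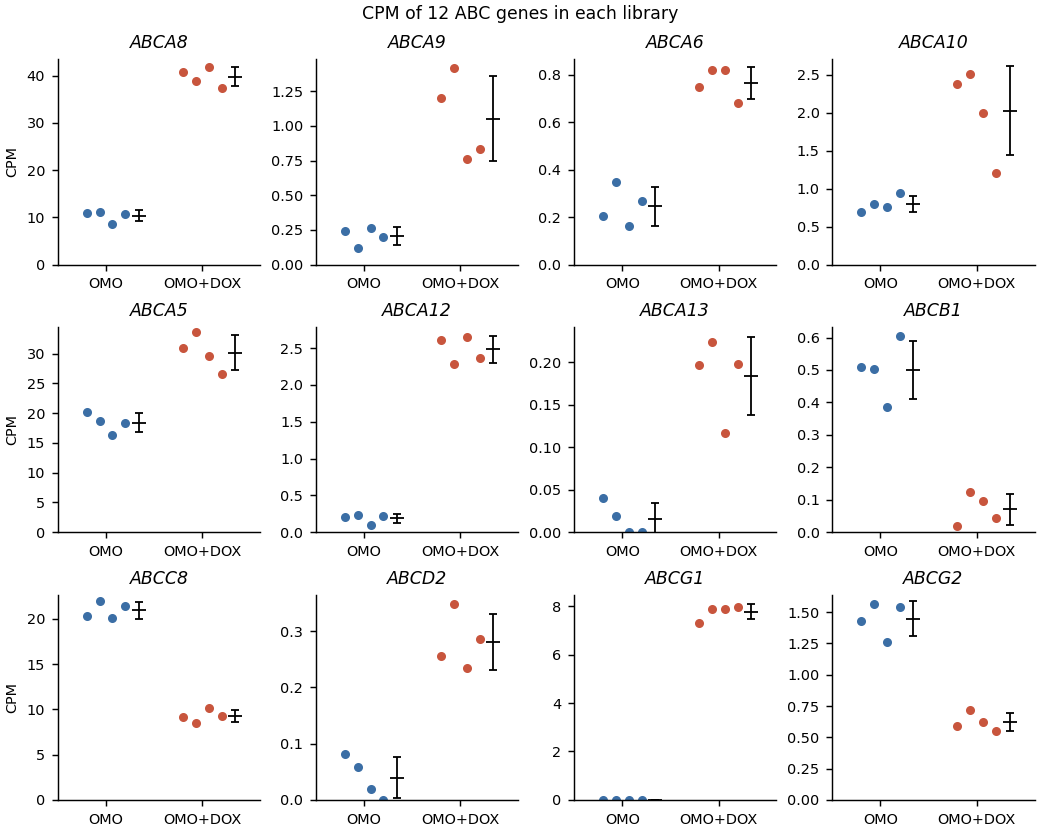
CPM (y axis, from 0 in each panel) of 12 ABC genes in each of 4 OMO and 4 OMO+DOX libraries (points, in replicate order within a group), with the mean and SD beside them. In every panel the groups do not overlap, with ABCB1, ABCC8 and ABCG2 lower and the other 9 genes higher in OMO+DOX. The 12 genes are a selection, while of the 30 tested members 13 were higher and 11 lower. Over all genes tested, 71.7% did not overlap. ABCA10, ABCA12 and ABCG1 passed the filter through the OMO+DOX libraries alone and ABCG2 through the OMO libraries alone.

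In subfamily G, ABCG1 went from no counts to a clear level. ABCG1, which transfers cellular cholesterol to high-density lipoprotein, had 0 counts in all 4 OMO libraries and 371, 317, 405 and 363 counts in OMO+DOX, equal to 7.29, 7.88, 7.90 and 7.97 CPM. Against a floor of 3 counts in each OMO library, the level with doxycycline was at least 125.7-fold higher (adjusted p = 9.02e-10). With doxycycline it ranked 22 of the 45 members per kb of exon.

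ABCG1 lies on the plus strand of chromosome 21 from 42199689 to 42297244 (GRCh38). Of 21 genes listed within 700 kb, 13 exceeded 0.5 CPM in a library, and 5 of these 13 had at most 3 counts in every OMO library, a window and a count set after the values were seen. Besides ABCG1 they were TFF2, SLC37A1, LINC01671 and AP001626.1, all downstream of it. SLC37A1, a sugar-phosphate exchanger, had 0 to 2 counts per library in OMO and 378 to 582 in OMO+DOX, and AP001626.1 had 0 counts in OMO and 1460 to 1944 in OMO+DOX. PDE9A, a cyclic GMP phosphodiesterase at the far end of this stretch, was at 0.247 ± 0.0546 CPM in OMO and 180 ± 10.3 CPM in OMO+DOX. AP001626.1 is annotated as an antisense gene, and whether the counting used strand is not given in the sources used here. Outside the stretch, C2CD2 was not called (log2 fold change -0.13, approximate 95% interval -0.26 to -0.01, adjusted p = 0.069). PRDM15 and PKNOX1 changed by log2 fold changes of 0.16 (adjusted p = 0.0428) and 0.26 (adjusted p = 0.000507), and WDR4 by -0.23 (adjusted p = 0.00446). The largest changes among these tested flanking genes were in ZBTB21, upstream of ABCG1 (log2 fold change 0.45, adjusted p = 0.000276, no overlap), and NDUFV3 (0.31, adjusted p = 0.000121). UMODL1, also upstream but under 0.5 CPM, had 0 counts in all OMO libraries and 3 to 14 in OMO+DOX.

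**Figure D4:**
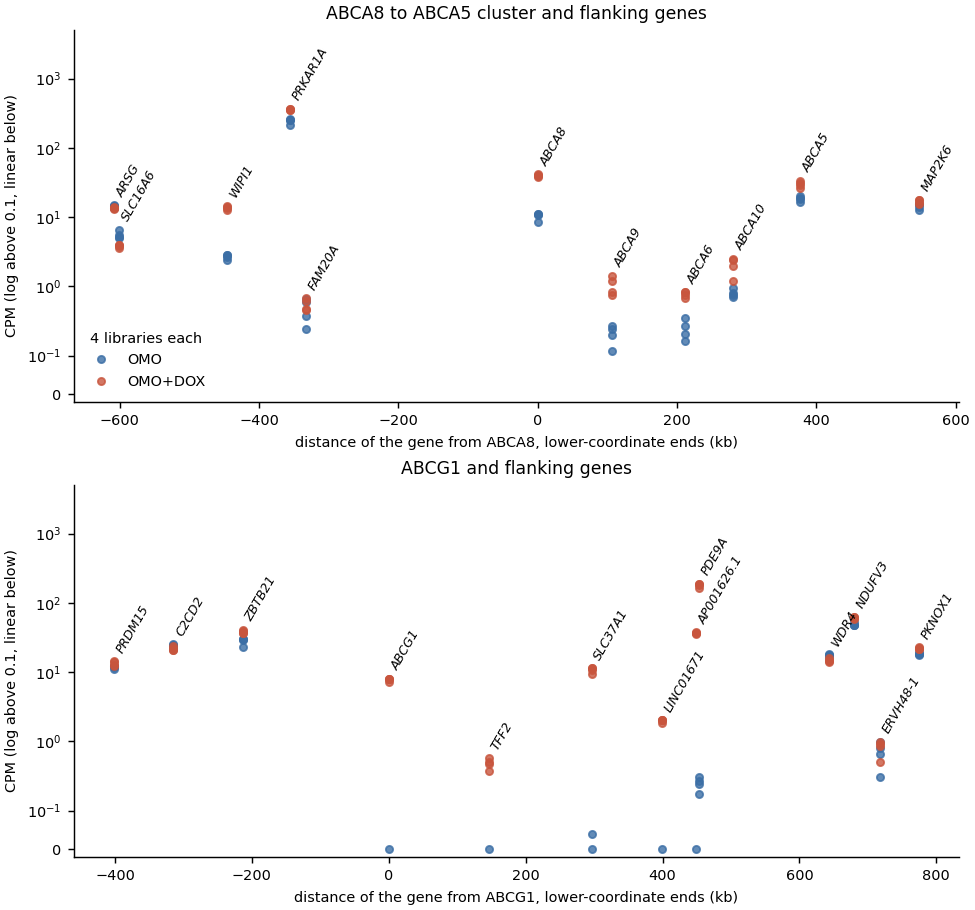
CPM of genes over 0.5 CPM in a library (y axis, log scale above 0.1 and linear below) against their distance in kb from ABCA8 (top) or ABCG1 (bottom), with a point for each of 4 OMO and 4 OMO+DOX libraries. In the lower panel ABCG1, TFF2, SLC37A1, LINC01671 and AP001626.1 sit at or near 0 in OMO and at 0.373 CPM or more in OMO+DOX, PDE9A is at 0.247 and 180 CPM on average, and the groups of the genes on both sides overlap or lie close together.

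ABCG2, the breast cancer resistance protein, was at 1.43, 1.56, 1.26 and 1.54 CPM in OMO and 0.590, 0.721, 0.624 and 0.549 CPM in OMO+DOX. All OMO+DOX values were below all OMO values, 2.33-fold lower (log2 fold change -1.22, SE 0.14, adjusted p = 8.13e-06). ABCG4, a relative of ABCG1 found mainly in brain, was not called (log2 fold change -0.13, 95% interval -0.30 to 0.04). ABCG8, the partner of ABCG5 in exporting plant sterols and cholesterol, was at 0.163, 0.232, 0.122 and 0.313 CPM in OMO and 0.256, 0.422, 0.214 and 0.264 CPM in OMO+DOX, with overlapping groups. ABCG5 did not exceed 4 counts in any library.

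None of the plasma membrane transporters of subfamily B reached the filter. ABCB1, the multidrug efflux pump P-glycoprotein, had 25, 26, 19 and 27 counts in OMO and 1, 5, 5 and 2 counts in OMO+DOX. All OMO+DOX counts were below all OMO counts, and the fit without the filter gave a 7.08-fold lower level (log2 fold change -2.82, SE 0.40, adjusted p = 4.64e-07). At a mean of 0.5001 CPM in OMO it was a low-level transcript before induction as well. ABCB4, the phosphatidylcholine floppase of bile, ABCB5 and ABCB11, the bile salt export pump, had at most 4 counts in any library.

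Mitochondrial and lysosomal members of subfamily B included genes that rose, fell and were not called. ABCB8, a mitochondrial inner membrane transporter, rose by 0.23 (SE 0.07, adjusted p = 0.00899) although its groups overlapped. ABCB6, a porphyrin transporter, fell from 64.7 ± 4.85 to 39.0 ± 2.51 CPM, 1.66-fold (adjusted p = 7.62e-07), and 54.7% of its exonic bases are shared with the same-strand gene AC068946.2, at 6.35 and 3.85 CPM. ABCB10, a mitochondrial transporter of erythroid haem synthesis, was not called (log2 fold change 0.09, 95% interval -0.01 to 0.19) except without OMO+DOX replicate 4 (adjusted p = 0.0481) or with scaling by library totals (adjusted p = 0.00332). Not called either was the lysosomal peptide transporter ABCB9 (0.08, 95% interval -0.14 to 0.29). ABCB9 overlaps 3 genes on the other strand, including ARL6IP4 at 105.6 and 82.5 CPM, so its own level of about 5.07 and 5.32 CPM is uncertain.

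Of the 9 organic anion and drug exporters of subfamily C, 6 were tested, of which 2 were higher, 3 lower and 1, ABCC1, not called. ABCC5 fell from 229 ± 20.2 to 158 ± 5.18 CPM (log2 fold change -0.53, SE 0.06, adjusted p = 1.06e-05). ABCC6, whose loss causes ectopic mineralisation in pseudoxanthoma elasticum, fell from 24.3 ± 1.48 to 14.2 ± 1.20 CPM, 1.70-fold (adjusted p = 9.54e-07). Near-identical pseudogene copies of ABCC6 exist in the genome and its estimated counts were not all whole, so its level is uncertain. The canalicular conjugate exporter ABCC2 fell by 0.41 on the log2 scale (SE 0.13, adjusted p = 0.0119) at a mean of 2.03 CPM in OMO. With the filter applied again that call was lost without OMO+DOX replicate 4 (adjusted p = 0.0514), though it held with the same genes tested. Scaling by library totals alone also lost it (adjusted p = 0.0678). ABCC10 rose from 13.0 ± 0.879 to 19.4 ± 0.745 CPM (log2 fold change 0.57, SE 0.06, adjusted p = 3.77e-06), and ABCC4, an exporter of cyclic nucleotides and prostaglandins, rose by 0.22 (SE 0.07, adjusted p = 0.0103) with overlapping groups.

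The other 3 exporters did not reach the filter. ABCC3, a conjugate exporter of liver and gut, was at 0.366, 0.328, 0.203 and 0.268 CPM in OMO and 0.177, 0.224, 0.429 and 0.527 CPM in OMO+DOX. ABCC11, known for its role in earwax type, was at 0.814, 0.792, 0.649 and 0.917 CPM in OMO and 0.649, 1.19, 0.702 and 0.703 CPM in OMO+DOX. The groups overlapped in both genes, with log2 fold changes of 0.19 (SE 0.34) and -0.01 (SE 0.22) in the fit without the filter. ABCC12 had at most 3 counts in any library.

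ABCC8, the sulfonylurea receptor SUR1 that surrounds the pore of ATP-sensitive potassium channels, was at 20.3, 22.0, 20.1 and 21.5 CPM in OMO and 9.16, 8.50, 10.1 and 9.29 CPM in OMO+DOX. Each OMO+DOX library was at roughly the same low level, well below the OMO libraries, 2.26-fold lower (log2 fold change -1.17, SE 0.06, adjusted p = 1.06e-08). KCNJ11, which encodes the pore subunit that SUR1 joins and is its neighbour in the genome, fell from 19.3 ± 0.636 to 5.83 ± 0.752 CPM, 3.30-fold (adjusted p = 4.28e-09). KCNJ8, the other pore subunit, rose from 16.5 ± 1.08 to 20.9 ± 1.19 CPM (log2 fold change 0.34, SE 0.06, adjusted p = 0.000426). ABCC9, the receptor SUR2 that usually joins the KCNJ8 product, had at most 3 counts in any library.

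Subfamily D transporters act in peroxisomes and lysosomes. ABCD2, a peroxisomal importer of fatty acids, had 4, 3, 1 and 0 counts in OMO and 13, 14, 12 and 13 counts in OMO+DOX. The groups did not overlap, and the fit without the filter gave a log2 fold change of 2.67 (SE 0.52, adjusted p = 7.34e-05), from an OMO mean of 0.0399 CPM that lay under the floor. ABCD3, which imports branched-chain and bile acid precursors, rose by 0.16 (SE 0.04, adjusted p = 0.00555), a call lost in the fit without the filter (adjusted p = 0.0555), and ABCD4, which acts in lysosomal export of cobalamin, fell by 0.15 (SE 0.05, adjusted p = 0.00935). With the filter applied again, ABCD4 was not called without OMO+DOX replicate 2 or 3 (adjusted p = 0.0544 and 0.0576). The call held in both cases with the same genes tested. ABCD4 was also not called when scaled by library totals alone (log2 fold change -0.02, adjusted p = 0.602).

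Of the soluble members, ABCF1, which binds initiation factor 2, and ABCF3 were lower, and ABCE1 and ABCF2 were not called. ABCF3 fell from 49.98 ± 2.04 to 37.3 ± 0.518 CPM (log2 fold change -0.42, SE 0.04, adjusted p = 3.47e-06). ABCF2 had a log2 fold change of -0.01 (95% interval -0.15 to 0.14), and 45.8% of its exonic bases are shared with the same-strand gene AC021097.2. With scaling by library totals alone ABCF1 was not called (log2 fold change -0.07, adjusted p = 0.143).

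Genes that work with these transporters were taken in lists chosen for their roles, and their counts stand beside 38.5% higher and 38.1% lower over all genes tested. Among 15 tested genes of sterol efflux and the liver X receptor (LXR), 9 were higher, 5 lower and 1 not called, with a median log2 fold change of 0.23 against 0.01 over all genes tested. APOE, the main lipid acceptor apolipoprotein of brain, rose from 8.97 ± 0.763 to 140 ± 16.9 CPM (15.6-fold, adjusted p = 1.28e-11). The LXR genes NR1H2 and NR1H3 rose by log2 fold changes of 0.41 (adjusted p = 0.000275) and 0.23 (adjusted p = 0.0284). The NR1H3 groups overlapped, and its call was lost in the fit without the filter (adjusted p = 0.0819). The retinoid X receptor gene RXRA fell from 110 ± 2.86 to 69.8 ± 2.53 CPM (log2 fold change -0.66, adjusted p = 6.98e-08). RXRB rose by 0.14 (adjusted p = 0.037) with overlapping groups. RXRG, also a retinoid X receptor, fell from 3.29 ± 1.01 to 0.0546 ± 0.0389 CPM (log2 fold change -5.88, adjusted p = 7.16e-08). It passed the filter through the OMO libraries alone, so it had to differ in order to be tested. SCD, a desaturase and common LXR target, fell from 122 ± 6.68 to 57.3 ± 2.24 CPM (adjusted p = 3.47e-09).

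Of 12 genes of peroxisomal β-oxidation and biogenesis, 6 were higher, 4 lower and 2 not called (median log2 fold change 0.17). HSD17B4, the bifunctional enzyme that acts on acyl chains after import, rose from 83.2 ± 1.49 to 233 ± 2.03 CPM (2.80-fold, adjusted p = 2.57e-11). Of 13 genes of mitochondrial iron-sulfur and haem synthesis, 5 were higher, 6 lower and 2 not called (median log2 fold change -0.07), none with an absolute log2 fold change of 1. Of 12 genes of ribosome recycling and the initiation factor 2 pathway, 1 was higher, 4 lower and 7 not called (median log2 fold change -0.04).

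Among 18 genes of glutathione synthesis and conjugation, whose products subfamily C exports, 7 were higher, 8 lower and 3 not called (median log2 fold change -0.09). The glutathione transferases GSTM3 and GSTM4 rose from 12.05 ± 0.599 to 30.5 ± 0.722 CPM (adjusted p = 4.86e-10) and from 6.70 ± 0.763 to 15.1 ± 0.784 CPM (adjusted p = 1.06e-07). Of 6 tested regulators of drug-handling genes, 4 were higher, 1 lower and 1 not called, and the nuclear receptor NR1I3 rose from 1.18 ± 0.0813 to 3.56 ± 0.193 CPM (adjusted p = 4.61e-08). Of the ABC genes outside the naming rule, TAP2, a chain of the antigen peptide transporter, rose from 0.636 ± 0.235 to 3.57 ± 0.315 CPM (5.67-fold, adjusted p = 2.42e-07). It passed the filter through the OMO+DOX libraries alone, so it had to differ in order to be tested. Its partner TAP1, at 0.298 ± 0.0593 and 0.518 ± 0.0801 CPM, did not reach the filter, and its groups did not overlap. The fit without the filter gave TAP1 a log2 fold change of 0.76 (SE 0.27, adjusted p = 0.0234). CFTR, the chloride channel of the family, had 3 counts summed over OMO and 161 over OMO+DOX, a scaled ratio of 55.7 with a counting interval of 18.7 to 273.

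MYC and MAX bind the E-box CACGTG and also a variant that reads CACGCG in one direction and accordingly CGCGTG when read from the other, so promoter windows of 250 bases before to 50 bases after each RefSeq start (GRCh38.p14) were searched for these letters on both strands. RefSeq windows matched 35 of the 45 members, 53 windows in all. CACGTG, which reads the same on both strands and cannot overlap the variant, was in 7 of the 35 windows of tested members (20%), against 9.34% of 15629 windows of all genes tested, and in 9 of the 53 windows of all members (17%), against 7.26% of all 35116 windows. The windows of ABCG2 that hold it overlap and share the same E-box. The variant, whose 2 forms can overlap each other, was in 9 windows, each counted once. They were 25.7% of the windows of tested members against 17.1% of those of all genes tested, and 17% of the windows of all members against 11.4% of all windows. Members with CACGTG were ABCA1, ABCA9, ABCA12, ABCB6, ABCB9, ABCC10, ABCF1 and ABCG2, which include genes that were higher, lower and not called above. The windows of the 4 of these with the clearest differences are shown, ABCA12 and ABCA9 higher and ABCB6 and ABCG2 lower with doxycycline, with CACGTG in capitals and the strand of the gene read 5′ to 3′. They lie at chr2:215032037-215032336, chr17:69060878-69061177, chr2:219218909-219219208 and chr4:88158810-88159109, all on the minus strand, and those of ABCA12 and ABCG2 belong to starts inside the longest gene model. Which start these cells use was not tested.
ABCA12: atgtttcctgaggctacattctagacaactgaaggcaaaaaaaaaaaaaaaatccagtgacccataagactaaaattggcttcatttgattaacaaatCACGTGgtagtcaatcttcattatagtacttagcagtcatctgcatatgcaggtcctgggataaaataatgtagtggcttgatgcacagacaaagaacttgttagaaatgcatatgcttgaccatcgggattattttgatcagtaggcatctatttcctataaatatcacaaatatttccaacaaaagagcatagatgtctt
ABCA9: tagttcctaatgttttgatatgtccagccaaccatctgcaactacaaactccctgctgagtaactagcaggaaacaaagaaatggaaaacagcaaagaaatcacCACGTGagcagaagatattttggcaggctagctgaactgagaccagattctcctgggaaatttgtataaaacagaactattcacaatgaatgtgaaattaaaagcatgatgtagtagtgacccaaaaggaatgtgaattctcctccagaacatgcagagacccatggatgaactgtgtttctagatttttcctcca
ABCB6: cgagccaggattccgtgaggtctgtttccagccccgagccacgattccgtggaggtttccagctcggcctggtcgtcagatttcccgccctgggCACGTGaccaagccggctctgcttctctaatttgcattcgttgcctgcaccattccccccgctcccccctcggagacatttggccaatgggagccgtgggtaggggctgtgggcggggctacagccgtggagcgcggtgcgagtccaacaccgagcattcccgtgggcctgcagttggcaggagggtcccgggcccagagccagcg
ABCG2: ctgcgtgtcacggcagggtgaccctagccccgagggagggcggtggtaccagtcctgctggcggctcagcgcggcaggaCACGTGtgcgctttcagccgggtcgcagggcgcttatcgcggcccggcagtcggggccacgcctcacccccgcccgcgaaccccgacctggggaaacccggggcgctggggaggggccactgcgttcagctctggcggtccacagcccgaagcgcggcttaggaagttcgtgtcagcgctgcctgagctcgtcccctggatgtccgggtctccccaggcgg
Counted from the start, the E-box begins at -152, -146, -156 and -171 in the order shown. The windows of ABCA12 and ABCA9 hold 34.7% and 39.7% G and C, and those of ABCB6 and ABCG2 hold 65.7% and 72.3%. A match is a run of letters in the reference and says nothing of binding in these cells.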

How the data were processed

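Polyadenylated RNA of 8 libraries was sequenced as paired reads, 100 nucleotides long, with a stranded kit. Per the study's methods and the labels, the authors used Trim Galore for trimming and STAR for alignment against the GRCh38 primary assembly of GENCODE release 32, and deposited RSEM expected counts per gene for each library. Tool versions and strand setting are not given in the sources used here. Counts were rounded to whole numbers, and Ensembl IDs were named from GENCODE release 29 (58561 of 60668 matched), ABCC13 dropping out as not protein-coding. The main test was edgeR 4.0.16 (R 4.3.3) with TMM scaling, genes over 1 CPM in at least 4 libraries, a quasi-likelihood F test and Benjamini-Hochberg adjustment over all 15222 genes tested. CPM values are TMM-scaled, CPM per kb uses the union of exons, and 95% intervals are the log2 fold change ± the normal quantile times SE. DESeq2 1.42.0, other scalings and filters, a replicate block and leaving out each library were alternatives. The test was tested on simulated data. Members, lists and the rule for named genes (members, with library values for the largest changes, the most abundant and those detected but not tested, and list genes with an absolute log2 fold change of at least 1) were chosen with earlier results of these data known. The LXR genes, RXRA, RXRB, KCNJ8, TAP1 and CFTR were named besides. Members without a RefSeq promoter entry were not searched. Results of 2 members are not reported here.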

Additional observations from a re-analysis of the deposited data

Results flagged for a closer look

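In 101 groups of 4 libraries (both groups of each tested member, of the members detected but not tested and of the list genes named, where values varied), the gap between the highest or lowest library and the next was compared with the whole range by Dixon's criterion, which chance meets in about 1 group of 20, here 5.05 groups. It was met in 8. OMO+DOX replicate 2 was the one standing apart in 5 of them: lowest for ABCA2 (111.8 CPM), ABCA7 (41.88 CPM) and GSTM4 (13.97 CPM), and highest for ABCC11 (1.193 CPM) and HSD17B4 (235.9 CPM). The total count of that library, 38390696, was the lowest of all libraries. OMO replicate 3 was highest for ABCB6 (71.88 CPM) and ABCF1 (132.2 CPM). OMO+DOX replicate 1 was lowest for ABCG1 (7.295 CPM). No explanation of these values was tested.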

How the results depend on the processing

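Over the alternatives that keep all 8 libraries, 192 of 206 log2 fold changes of the 30 tested members kept their direction and their side of the threshold, 7 lost the call, 2 gained one and 5 changed sign. Scaling by library totals alone moved the median of all genes by 0.13 on the log2 scale, gave 14 members higher and 8 lower, and turned the sign of ABCC1 (0.0414), ABCE1 (0.1233) and ABCF2 (0.1193), none called either way. With over 1 CPM required in more than 4 libraries, the log2 fold changes of ABCE1 and ABCF2 were 0.0097 and 0.0047, and 0 members and 562 genes in all were differentially expressed, since genes detected in 1 group only are then not tested. With no filter 6 of the 45 members and 2097 of 36881 genes were, and the 6 include the low-count ABCA9, ABCA13, ABCB1 and ABCD2, which the filter removes. Leaving out each library gave 9 to 13 members higher, 10 to 12 lower and 27 to 30 tested, and 0 to 2 differentially expressed. When the filter was applied again, leaving out any OMO+DOX library dropped ABCA12 and ABCG1 from testing, which left 0 members, or 1 (ABCA8) without replicate 4. With the same genes tested the count was 2 throughout. With the filter applied again ABCE1 ranged from -0.0475 to 0.0553, ABCF2 from -0.0629 to 0.0523 and all differentially expressed genes from 705 to 922. With the same genes tested they ranged from -0.0410 to 0.0290, from -0.0552 to 0.0476 and from 1072 to 1091. Sign changes in the second set were 0.0043 (without OMO replicate 1), 0.0020 (without OMO+DOX replicate 1) and 0.0290 (without OMO+DOX replicate 4) for ABCE1, and 0.0476, 0.0244 and 0.0266 (without OMO replicate 3, OMO+DOX replicate 1 and OMO+DOX replicate 2) for ABCF2. Whether the replicate numbers pair the samples was left undecided by the correlations of deviations. These were 0.2, 0.182, 0.314 and -0.24 for libraries of the same number (mean 0.114), against a mean of -0.0415 for other pairs. A replicate block gave 12 members higher and 11 lower, only ABCA3 losing its call. The depth does not resolve differences among members under 3 counts.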
